A study of Sus scrofa with 4 samples.

Results

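Insulin signalling components are represented here by 10 genes: the receptors INSR and IGF1R, the docking proteins IRS1 and GAB1, the kinases PDPK1, AKT1 and AKT2, the transcription factors FOXO1 and FOXO3, and TSC1, a brake on the growth kinase mTOR. They were taken by gene symbol from 6765 annotated genes, and 19 of the 23999 porcine probe sets carry one of these symbols. Livers came from male crossbred pigs, (German Landrace x Large White) x Pietrain, aged 7 weeks. All had eaten a basal diet for 21 days, and the carnitine group had 500 mg L-carnitine per kg added to it. Organs were taken 2.5 h after the last meal. Each diet had 8 pigs, combined into 2 RNA pools of 4 pigs each, and each pool was hybridized to 1 Affymetrix porcine array, so that the spread between pools hides the differences between single pigs.

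Insulin reaches the liver through the portal vein after a meal and binds the insulin receptor, a tyrosine kinase. The receptor phosphorylates docking proteins of the IRS and GAB families, which recruit phosphatidylinositol 3-kinase. The lipid it makes brings AKT to the membrane, where PDPK1 phosphorylates it. Active AKT drives glycogen and lipid synthesis, releases mTOR from the TSC complex and keeps FOXO factors out of the nucleus, so that gluconeogenic genes are turned down. Much of this control acts by phosphorylation of the proteins, and an array reads only the amount of transcript.

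Values are MAS5 signals, a summary of the probe pairs of each probe set on a linear scale in arbitrary units, and the signals of a diet are given for its pool 1 and then its pool 2. A log2 fold change, or log2 difference, is the mean log2 signal of the carnitine pools minus that of the control pools. Standard errors (SE), 95% intervals and adjusted p-values are from limma over all 23999 probe sets with Benjamini-Hochberg adjustment, and a difference was called at 0.05. They combine the spread between pools of a probe set with the typical spread of probe sets of like signal. An SE can thus be wider than that from a probe set's own pools alone (IRS1, 0.95 against 0.36) or narrower (AKT2, 0.30 against 0.47). A probe set is termed dim where its mean log2 signal lies under 6.79, the median of all probe sets, which is a signal of 111. Signals of different probe sets are not comparable as amounts, since each set of probes binds with its own strength. An exact permutation test of 2 pools against 2 cannot give a two-sided p below 0.333.

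The transcripts of the kinases, of GAB1 and of FOXO1 had at least 1 probe set above the median signal, whereas those of INSR, IGF1R, IRS1, FOXO3 and TSC1 were dim in each of their probe sets. In total 6 member probe sets lay at or above the median signal and 13 below it. All 6 of the brighter ones had a mean signal that was lower in the carnitine pools, by log2 fold changes from -0.62 to -0.075. None of the 19 passed the adjusted p, of which the lowest was 0.515 and the highest 0.998. At an unadjusted p under 0.05, 1 of the 19 was lower (GAB1) and 0 were higher, while over all probe sets 3.93% were lower and 4.72% were higher at that level, and 0.00417% passed the adjusted p in either direction. The one-factor test named in the general statistics section of the study's methods called 0 of the 19 before or after adjustment. The study itself took array probe sets as changed by a fold change of at least 2 in either direction. In liver tissue less RNA per cell and fewer cells of a type cannot be told apart.

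**Figure D1:**
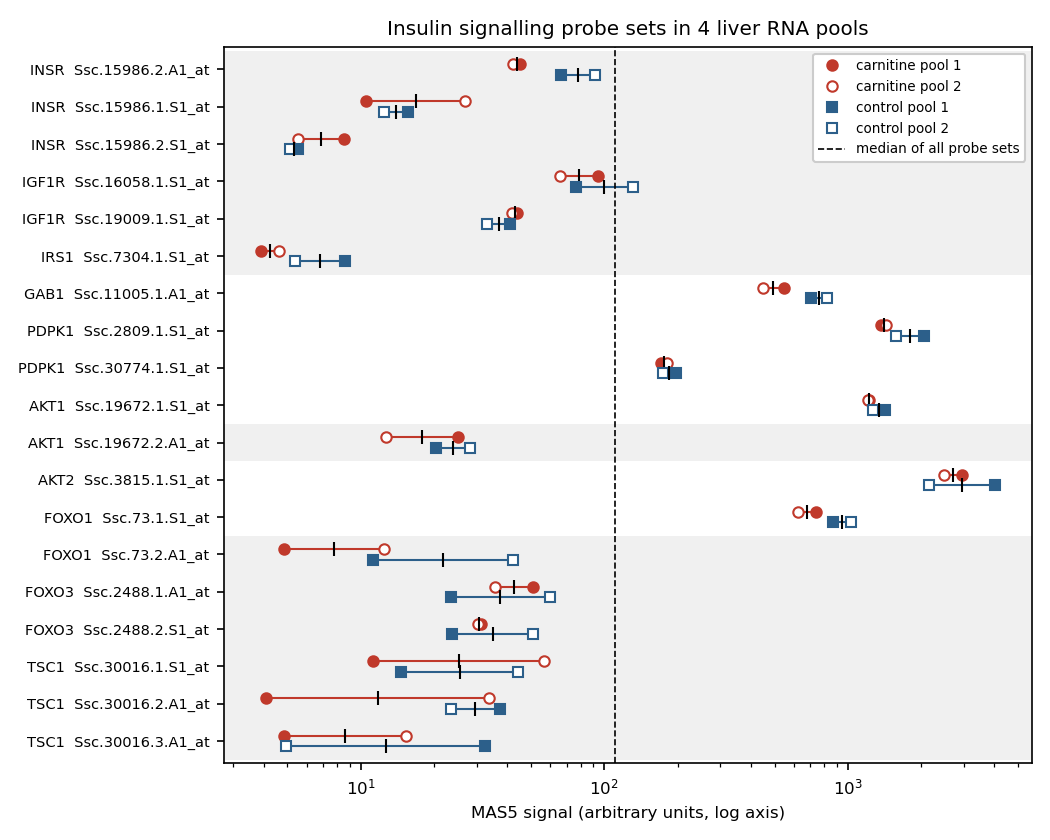
MAS5 signal (log axis, arbitrary units) of the 19 member probe sets in 4 liver RNA pools, with red circles for the carnitine pools, blue squares for the control pools, filled symbols for pool 1, open symbols for pool 2, lines joining the pools of a diet and black ticks at their geometric means. Rows of dim probe sets are shaded, and both GAB1 circles lie to the left of both squares, while those of AKT2 lie between its squares.

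The insulin receptor INSR, which binds insulin itself, had 3 probe sets, all dim. The probe set Ssc.15986.2.A1_at gave signals of 45.3 and 42.3 with carnitine and 66.6 and 91.9 without it, so that the diets did not overlap. Its log2 fold change was -0.84 (SE 0.48, interval from -1.97 to 0.29, limma adjusted p = 0.683). The probe set Ssc.15986.1.S1_at gave 10.5 and 26.9 with carnitine and 15.6 and 12.5 without it. The third, Ssc.15986.2.S1_at, gave 8.56 and 5.51 against 5.54 and 5.12. In both of these the pools of the diets overlapped, and their log2 fold changes of 0.26 and 0.37 had the opposite sign to that of the first. The INSR probe sets therefore gave no common direction.

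IGF1R, the receptor of the insulin-like growth factors and a close relative of INSR, is little expressed by adult hepatocytes. Its probe set Ssc.16058.1.S1_at gave 94.3 and 65.8 with carnitine and 76.3 and 131 without it, which overlapped. With a mean log2 signal of 6.47 it was the brightest of the dim members, just below the median. The other, Ssc.19009.1.S1_at, gave 43.7 and 42.0 against 41.1 and 33.2, and was the only member probe set with both carnitine pools above both control pools. The log2 fold changes were -0.34 (SE 0.46) and 0.21 (SE 0.54), so that both differences were smaller than their errors.

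Among the docking proteins the values of GAB1 and IRS1 differed widely in precision. GAB1 passes signals of insulin and of growth factor receptors to phosphatidylinositol 3-kinase and the Ras pathway. Its probe set Ssc.11005.1.A1_at had signals of 546 and 448 with carnitine and 707 and 823 without it. Both carnitine pools lay below both control pools, and the difference was wider than the gap between the pools of either diet, which was 1.22-fold for carnitine and 1.16-fold for control. The mean signal was 497 ± 69.5 (SD, n = 2 pools) against 765 ± 81.9 (SD, n = 2 pools), and the control level was 1.54 times as high on the log2 means. The log2 fold change of GAB1 was -0.62 (standard error 0.23, 95% interval -1.16 to -0.086, unadjusted p = 0.0286 and adjusted p = 0.515 from limma). Its size without single pools ranged from -0.77 to -0.48, and the unadjusted p exceeded 0.05 without carnitine pool 1 (0.0568), without carnitine pool 2 (0.184) and without control pool 2 (0.0833).

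IRS1, the first described substrate of the insulin receptor, had 1 probe set, Ssc.7304.1.S1_at, with signals of 3.89 and 4.63 with carnitine and 8.62 and 5.40 without it. The pools did not overlap, but the log2 fold change of -0.69 had a standard error of 0.95 and an interval from -2.93 to 1.56, which holds changes of several-fold in either direction. It ranged from -1.02 without control pool 2 to -0.35 without control pool 1, and raising all signals to a floor at the 25th percentile of the arrays left -0.026. IRS2, PIK3R1 and ERBB3, which the study discusses as insulin signalling genes, have no probe set with that symbol in the annotation used and were not analysed here.

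PDPK1, the kinase that switches on AKT at the membrane, had both probe sets above the median. The brighter, Ssc.2809.1.S1_at, gave 1373 and 1441 with carnitine and 2051 and 1574 without it. The diets did not overlap, with a mean of 1407 ± 47.8 (SD, n = 2 pools) against 1813 ± 338 (SD, n = 2 pools). The log2 fold change was -0.35 (SE 0.21, interval from -0.84 to 0.14, limma adjusted p = 0.691), about as large as the log2 gap of 0.38 between the control pools. Leaving out the first control pool gave -0.16, and leaving out the second gave -0.54. The other PDPK1 probe set, Ssc.30774.1.S1_at, gave 170.2 and 181 with carnitine and 197 and 174 without it. Here the pools overlapped, and the log2 fold change was -0.075 (SE 0.30). At a mean log2 signal of 7.49 it was the dimmest member above the median, and the size of the difference depended on the probe set.

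AKT1 and AKT2 are sister kinases, and AKT2 is the form best known for the action of insulin on glucose in liver. The bright AKT1 probe set, Ssc.19672.1.S1_at, gave 1220.4 and 1212 with carnitine and 1421 and 1274 without it. These pools did not overlap, and the log2 fold change was -0.15 (SE 0.19, interval from -0.59 to 0.30, limma adjusted p = 0.868). It moved to -0.067 without control pool 1 and to -0.22 without control pool 2. The dim AKT1 probe set, Ssc.19672.2.A1_at, gave 25.05 and 12.7 against 20.4 and 28.0, with overlapping pools. AKT2, measured by Ssc.3815.1.S1_at, gave 2931 and 2481 with carnitine and 4029.7 and 2149 without it. The control pools thus enclosed the carnitine pools. Their 1.87-fold gap was the widest between pools of 1 diet among the 6 brighter member probe sets. The log2 fold change of AKT2 was -0.13 (SE 0.30, interval from -0.84 to 0.59, limma adjusted p = 0.931), and its direction turned with the control pool used, from 0.33 without control pool 1 to -0.58 without control pool 2.

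FOXO1 and FOXO3 are the transcription factors that AKT holds inactive, and FOXO1 drives gluconeogenic genes in the fasted liver. The bright FOXO1 probe set, Ssc.73.1.S1_at, gave 737 and 626 with carnitine and 866 and 1027 without it. As for GAB1, the diets did not overlap and the difference was wider than the gap between the pools of either diet. The mean signal was 682 ± 78.7 (SD, n = 2 pools) against 947 ± 114 (SD, n = 2 pools), and the control level was 1.39 times as high on the log2 means. The log2 fold change was -0.47 (standard error 0.22, 95% interval -0.99 to 0.038, unadjusted p = 0.0649 and adjusted p = 0.605 from limma), and it stayed between -0.60 and -0.35 when 1 pool was left out. Without control pool 1 the unadjusted p of FOXO1 was 0.0389, below 0.05, and its adjusted p was still above it.

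The dim FOXO1 probe set, Ssc.73.2.A1_at, gave 4.83 and 12.4 with carnitine and 11.2 and 42.2 without it, a log2 fold change of -1.49 with a standard error of 0.98. Leaving out control pool 1 gave -2.45 and leaving out control pool 2 gave -0.54, and it was -0.30 with an offset of 64 added to the signals. The wide gap between its control pools, 3.76-fold, left the groups overlapping. FOXO3 had 2 dim probe sets. Signals of Ssc.2488.1.A1_at were 50.8 and 35.5 with carnitine and 23.5 and 59.8 without it. Those of Ssc.2488.2.S1_at were 31.3 and 30.2 against 23.7 and 51.2. For both FOXO3 probe sets the control pools enclosed the carnitine pools, and the log2 fold changes of 0.18 and -0.18 had standard errors of 0.66 and 0.64.

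TSC1, the partner of TSC2 in the complex that restrains mTOR until AKT acts on it, had 3 dim probe sets and the poorest precision of the members. Signals of Ssc.30016.1.S1_at were 11.3 and 56.7 with carnitine and 14.6 and 44.4 without it. Those of Ssc.30016.2.A1_at were 4.10 and 33.6 against 37.2 and 23.4, and those of Ssc.30016.3.A1_at were 4.86 and 15.4 against 32.4 and 4.96. Pools of the same diet thus differed by up to 8.19-fold, and all 3 probe sets overlapped. The log2 fold changes of -0.0091, -1.33 and -0.55 had standard errors from 0.97 to 1.16 and turned in sign when single pools were left out, so that no level of TSC1 could be compared between the diets.

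**Figure D2:**
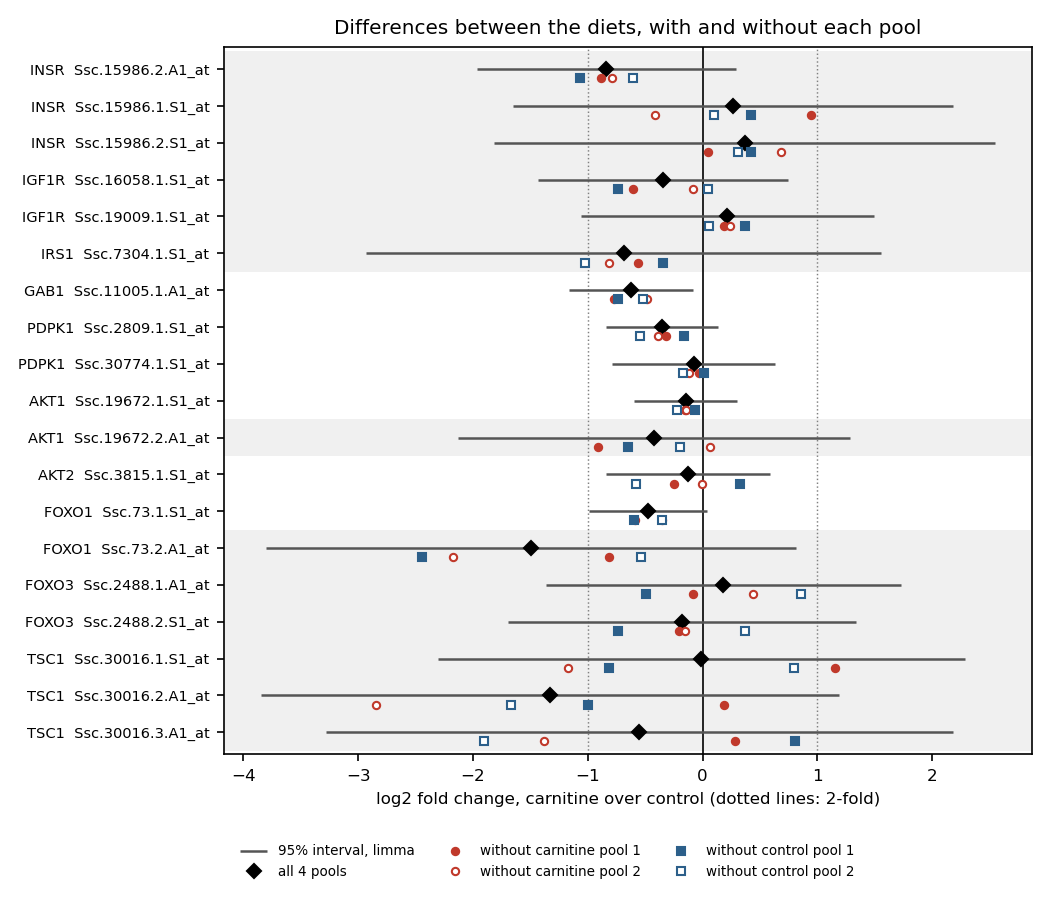
Log2 fold change, carnitine over control, of the 19 member probe sets, with diamonds for all 4 pools, lines for the 95% interval from limma, red circles for fits without a carnitine pool and blue squares for fits without a control pool (filled for pool 1, open for pool 2). The intervals of shaded, dim probe sets all cross a 2-fold change, GAB1 has the only interval that excludes 0, and the squares of AKT2 lie on both sides of 0.

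The intervals show how closely limma fixed each difference, and its variance trend builds in wider errors at low signal. The median gap between pools of a diet also narrowed as the signal rose. Without the trend the SE was 0.28 for GAB1, 0.30 for the dim INSR Ssc.15986.2.A1_at and 0.88 for the dim FOXO1 Ssc.73.2.A1_at. The values that follow are from the fit with the trend. For 5 of the 6 brighter member probe sets, those of PDPK1 (both), AKT1, AKT2 and FOXO1, the 95% interval lay within a 2-fold change in either direction. That of GAB1 reached past a 2-fold decrease. For the 13 dim members the interval extended at least 1.09 on the log2 scale to either side of the estimate, and for TSC1 up to 2.73. In 0 of the 13 did it lie within a 2-fold change. Of all probe sets, 7046 of the 12000 at or above the median signal and 72 of the 11999 below it had an interval within a 2-fold change. The median standard error was 0.22 for the brighter and 0.82 for the dim members, beside 0.27 and 0.78 for all probe sets at or above and below the median signal.

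**Figure D3:**
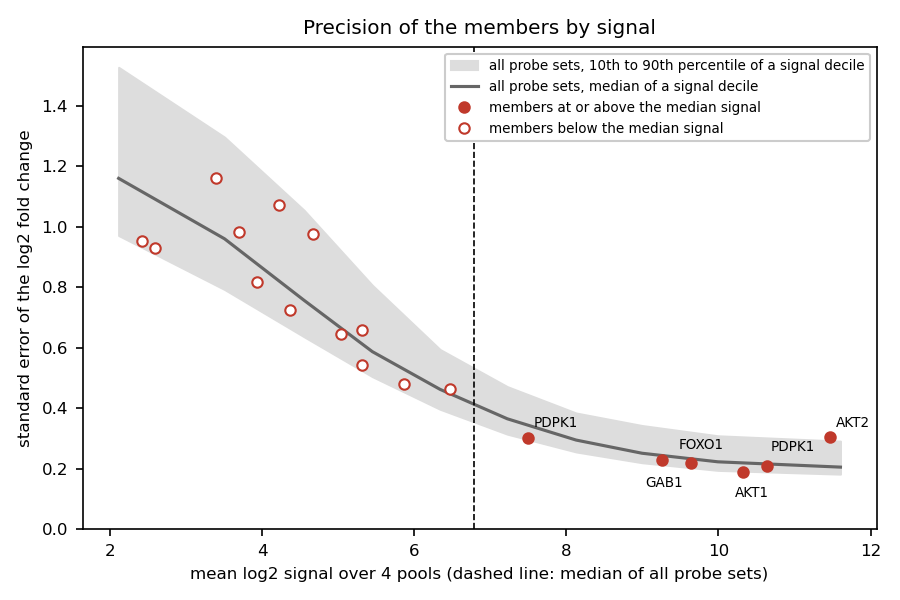
Standard error of the log2 fold change against the mean log2 signal over the 4 pools, with filled circles for the member probe sets at or above the median signal, open circles for dim ones, a line for the median of all probe sets at each level of signal and a band for their 10th to 90th percentiles. Most members lie within the band, AKT2 lies just above it with 0.30, and the open circles lie between 0.46 and 1.16.

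As a group, the brighter members were all on the lower side of 0, with a median log2 fold change of -0.25, while 51.2% of all probe sets at or above the median signal were below 0 and their median was -0.011. In 4 of the 6 (GAB1, PDPK1, AKT1 and FOXO1) both carnitine pools were below both control pools, and in 0 of the 6 above, beside 22.0% and 21.9% of all probe sets of that brightness. These 6 probe sets stand for 5 genes, share the same 4 arrays and are not independent, so the counts are given as a description. Without control pool 1 only 4 of the 6 were below 0 and the median was -0.11, and without control pool 2 it was -0.43. Over all 19 members 15 were below 0 (51.4% of all probe sets) with a median of -0.34, which ranged from -0.49 to -0.21 without 1 pool and was -0.12 with an offset of 64, and the pools were apart on the lower side in 6 and on the higher side in 1, beside 20.4% and 19.2% of all probe sets. A difference of 2-fold or more was reached by 2 of the 19, both dim (FOXO1 Ssc.73.2.A1_at and TSC1 Ssc.30016.2.A1_at), while 16.0% of all probe sets and 28.3% of the dim ones reached it.

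The pattern of GAB1 over the 4 pools was set against that of 6051 other probe sets with 1 symbol above the median signal, each centred on its own mean log2 signal. The closest genes were SLC44A2, VMO1, PARVA, QKI and OXA1L, with root mean square distances from 0.025 to 0.043 on the log2 scale. FOXO1 was at 0.078, and 26 of the 6051 were as close or closer to GAB1. AKT1 at 0.29, the brighter PDPK1 probe set at 0.28 and AKT2 at 0.47 lay farther away, with 1390, 1276 and 3871 probe sets as close or closer. With 4 pools many genes share a pattern, and the distances only describe these arrays.

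Other genes of the pathway had values on both sides of 0. Of 111 further genes, 52 have a probe set of 1 symbol, and the brightest probe set of each was used, 43 of them at or above the median signal. In limma 0 of the 52 passed the adjusted p, 5 had an unadjusted p under 0.05 on the higher side and 2 on the lower, and the one-factor test of the methods gave 1 higher and 2 lower before adjustment and 0 after it. Of all annotated genes, taken the same way, 6.56% were higher and 3.99% lower at that level. The pools were apart on the higher side for 10 and on the lower side for 11 of the 52, beside 21.5% and 21.0% of all annotated genes. Of the 52, 27 were below 0, as were 50.9% of all annotated genes. The median log2 fold change of the list was -0.013, that of all annotated genes taken the same way -0.0089 and that of all probe sets -0.018.

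Among ligands and receptors, IGF2R, the receptor that clears IGF2 and carries lysosomal enzymes, had signals of 108 and 156 with carnitine and 48.8 and 59.3 without it. Its log2 fold change was 1.27 (SE 0.43, limma adjusted p = 0.480), and its mean was dim although the carnitine pools lay around the median signal of the array. IGF1, the growth factor that the liver releases under growth hormone, had signals of 225 and 159 against 246 and 373, and IGF2, a fetal-type growth factor still made in pig liver, 4278 and 3996 against 6428 and 4325. For both the pools were apart on the lower side, at log2 fold changes of -0.68 (SE 0.34) and -0.35 (SE 0.23). Without control pool 1 that of IGF2 was -0.065 and that of IGF1 -0.98, and without control pool 2 they were -0.64 and -0.38. INS, the insulin gene itself, was dim.

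Of 6 docking and adaptor proteins 0 had an unadjusted p under 0.05. CAP1, GRB2 and FRS2, an adaptor of growth factor receptors, had log2 fold changes of 0.34, 0.19 and 0.17. GRB2, which links receptors to Ras, had signals of 1376 and 2394 with carnitine and 2604 and 967 without it, so that the pools of both diets spanned the same range. Of 9 inhibitors of the receptor and its substrates 1 was higher and 1 lower at that level, beside 6.56% and 3.99% of all annotated genes. PTPN2, a phosphatase that acts on the insulin receptor, gave 344 and 311 against 738 and 485 (log2 difference -0.87, SE 0.28, limma adjusted p = 0.461), but its dimmer probe set had a log2 fold change of 0.90. SOCS1, a suppressor of cytokine and insulin signals, gave 221 and 147 against 71.4 and 110.5 (1.02, SE 0.41, limma adjusted p = 0.552). Its 2 dim probe sets had overlapping pools and log2 fold changes of -0.45 and 0.55. GRB10, an adaptor that restrains the receptor, gave 517 and 445 against 816 and 529, a log2 fold change of -0.45.

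Phosphatidylinositol 3-kinase itself was hardly covered, with 3 of 14 genes of that group annotated. PIK3CA, PIK3CB, PIK3R1 and PIK3R2 were not among them, and the values of the 3 do not stand for those genes. PIK3CG, PIK3C3 and the lipid phosphatase INPPL1 had log2 fold changes of -0.095, -0.0040 and 0.044, and the pools of all 3 overlapped. Among 7 regulators and relatives of AKT, 6 lay above 0, while 50.9% of all annotated genes lay below it. At an unadjusted p under 0.05, 2 of the 7 were higher, beside 6.56% of all annotated genes. PPP2CA, the catalytic subunit of a phosphatase that removes phosphate from AKT, had signals of 6913 and 6574 with carnitine and 4141 and 5179 without it (log2 difference 0.54, SE 0.20, limma adjusted p = 0.509). HSP90AA1, a chaperone that AKT among many kinases relies on, gave 13573 and 14734 against 8894 and 11201 (0.50, SE 0.20, limma adjusted p = 0.554). Of its 5 probe sets, all at or above the median signal, 3 were above 0 and 2 below. SGK2, a kinase related to AKT, gave 1158 and 2499 against 850 and 1246, which overlapped.

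In the TSC, mTOR and S6 kinase branch 13 genes were measured. At an unadjusted p under 0.05, 1 of them was higher, beside 6.56% of all annotated genes. EIF4E, the cap-binding protein that mTOR sets free for translation, had signals of 474 and 671 with carnitine and 330.1 and 226 without it, a log2 fold change of 1.05 (SE 0.30, limma adjusted p = 0.429). RHEB, the small GTPase that TSC1 and TSC2 hold inactive, gave 2437 and 2535 against 1718 and 2408 (0.29, SE 0.22), and PRKAA1, a catalytic subunit of the energy sensor AMPK, gave 82.3 and 97.7 against 118 and 139 (-0.51, SE 0.37). Both PRKAA1 probe sets were dim, and the other had a log2 fold change of 0.16. Among 7 partners of FOXO and other substrates of AKT, 1 was lower at that level, beside 3.99% of all annotated genes. CDKN1B, a cell cycle inhibitor that FOXO factors induce, gave 658 and 565 against 1072 and 982 (-0.75, SE 0.21, limma adjusted p = 0.421). Its 2 dim probe sets had log2 fold changes of -1.67 and 0.51. PPARGC1A, the coactivator that works with FOXO1 on gluconeogenic genes, gave 207 and 157 against 315 and 267 (-0.69, SE 0.30, limma adjusted p = 0.586). YWHAE, one of the 14-3-3 proteins that bind phosphorylated FOXO, gave 11512 and 11272 against 7036 and 11212, so that 1 control pool was level with the carnitine pools. In the Ras and MAP kinase branch 3 of 14 genes were measured, ARAF, MAP2K2 and MAPK3, with log2 fold changes of -0.15, -0.12 and 0.46 and 0 of them past an unadjusted p of 0.05.

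**Figure D4:**
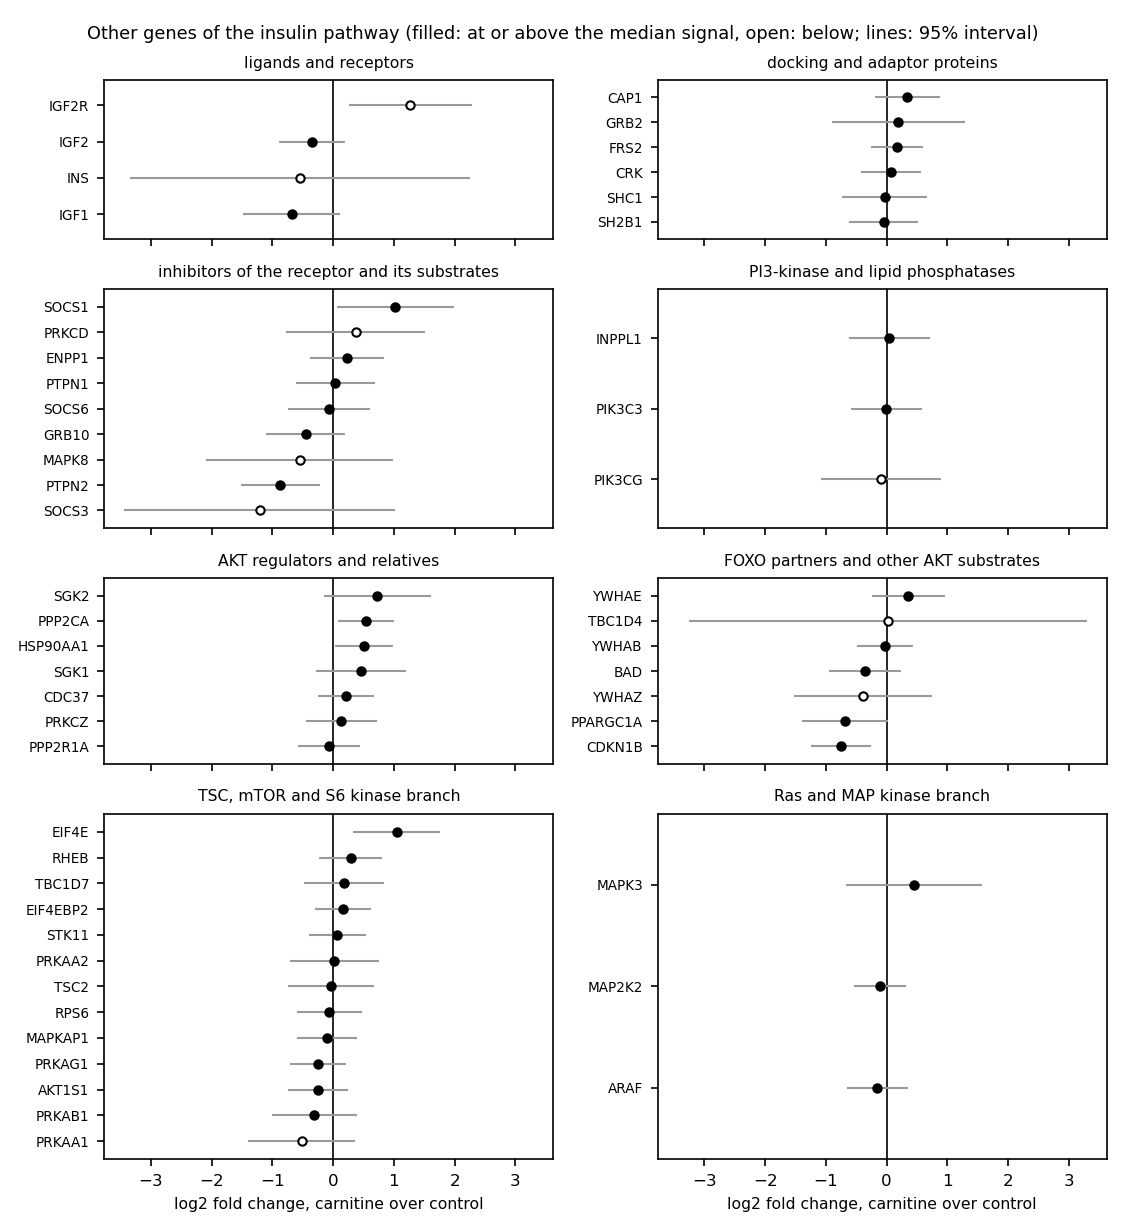
Log2 fold change, carnitine over control, of 52 other genes of the insulin pathway in 8 groups, with filled circles for probe sets at or above the median signal, open circles for dim ones and lines for the 95% interval from limma. Most intervals cross 0, and EIF4E, IGF2R and SOCS1 lie farthest to the right.

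IGFBP1 and PCK1, which insulin represses through FOXO1, had lower signals with carnitine in their bright probe sets but did not pass the adjusted p. The lowest log2 fold change of all probe sets at or above the median signal was -2.55. IGFBP1, which binds insulin-like growth factors in blood, gave 1761 and 927 against 7009.9 and 7769 in its bright probe set (log2 difference -2.53, SE 0.30, limma unadjusted p = 6.0e-05 and adjusted p = 0.174). Its dim probe set had overlapping pools and a log2 difference of 0.23 (SE 0.97). PCK1, the entry enzyme of gluconeogenesis, gave 991 and 2489.9 against 5177 and 15246 (-2.50, SE 0.57, limma unadjusted p = 0.0030 and adjusted p = 0.359).

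The 10 hepatocyte markers, among them ALB and APOA1, were bright, with mean signals from 3845 to 44806. Their summed signal was 324801 and 295591 with carnitine and 351549 and 324903 without it, and 6 of the 10 were apart on the lower side and 1 on the higher, beside 22.0% and 21.9% of all probe sets at or above the median signal. Markers of Kupffer cells summed to 4502 and 3692 against 5199 and 4913 (6 genes, 3 lower and 1 higher with pools apart), and those of red cells to 771 and 574 against 1027 and 1362 (3 genes, 2 lower). The sums of T and NK cell (8 genes), B cell (3 genes), endothelial (6 genes), stellate (8 genes) and cholangiocyte markers (4 genes) overlapped between the diets. Of these markers the pools were apart for 2 lower and 1 higher of T and NK cells, 1 lower of B cells, 0 of endothelial cells, 1 lower of stellate cells and 1 higher of cholangiocytes, and over all annotated genes for 21.0% lower and 21.5% higher. The 3 neutrophil markers were dim. Such sums are led by their brightest probe sets, and among stellate markers ACTA2 gave 542 in control pool 1 and 5533 in control pool 2, while COL1A2 gave 541 and 345. The study accepted RNA for the arrays only where a gel showed intact bands of ribosomal RNA. The ratio of 3' to 5' signal, a sign of RNA integrity, is higher where RNA is less intact. For GAPDH it was 18.7 and 16.1 in the carnitine pools, above the 12.5 and 11.6 of the control pools. For actin it was 157 and 136 with carnitine, above the 91.2 and 86.7 without it. The part of these shifts in the lower values of GAB1, PDPK1, AKT1 and FOXO1 was not tested.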

How the data were processed

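Biotin-labelled RNA of 4 liver pools, 2 per diet, was read on single-colour Affymetrix porcine GeneChips. The authors deposited MAS5 signal intensities on a linear scale; per the labels the tools were GCOS 1.1.2, Affymetrix Expression Console 1.1 and MAS5 5.0. The 2% trimmed mean of each array was 500.1. Detection calls were not used here, so that the signal over background is unknown. The 4 arrays limit the precision, with 2 residual degrees of freedom per probe set and 7.18 in total after moderation.

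Of 24123 rows 124 controls were left out. Their log2 values, without pseudocount or filter, were tested with limma 3.58.1 in R 4.3.3 (lmFit, eBayes with a variance trend, 23999 probe sets). The fit was tested on simulated data. The array's annotation, updated through a RefSeq gene table, named 1 gene for 10069 probe sets and several for 198, left 13732 unnamed, and gives no build, so that no coordinates are given. Sequences of the genes were not used here.

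The members and lists were chosen with earlier results of these data known. Every member probe set is named, with IRS2, PIK3R1, ERBB3, IGFBP1 and PCK1, the 3 genes of smallest unadjusted p in each of the 8 groups of the pathway list, and the 5 genes closest in pattern to the member above the median with the smallest p. INS, ALB, APOA1, ACTA2, COL1A2, GAPDH and actin were named after their values were seen. Alternatives were quantile normalization, median centring, a floor at the 25th percentile, an offset of 64, a filter at the median signal, no variance trend, the methods' one-factor test, the replicate number as a block, fits that leave out 1 pool, and for the list the mean over probe sets.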

Additional observations from a re-analysis of the deposited data

How the results depend on the processing

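None of the 19 member probe sets passed the adjusted p in limma under any alternative, where the lowest was 0.327, and 196 of 215 member values kept their direction. For the 24 named list genes the lowest adjusted p was 0.192, and 275 of 285 values kept their direction. The fits without a variance trend, with the one-factor test or with the block, and the filter, leave each log2 fold change as it is. Those values could not turn, and the counts of kept directions include them. A filter at the median signal left out the 13 dim members, IGF2R, PIK3CG and PRKAA1, so that 6 members lay below 0 and 0 had pools apart on the higher side. Over all probe sets that filter gave 3 at the adjusted p, 2626 and 2638 with pools apart on the higher and lower side and 6140.0 below 0. A floor at the 25th percentile put INSR Ssc.15986.1.S1_at and Ssc.15986.2.S1_at at -0.026, where all arrays lay at the floor, IRS1 at the same value, and TSC1 Ssc.30016.1.S1_at at 0.12, with 3 list genes higher at an unadjusted p under 0.05 and 2 probe sets of all at the adjusted p. This TSC1 probe set was at 0.012 after quantile normalization, which left 0 members apart on the higher side, and at 0.047 with an offset of 64. Median centring put it at 0.029, PIK3C3 at 0.034 and the median of all probe sets at 0.020, with 2 members apart on the higher side. Without a variance trend GAB1 had an unadjusted p of 0.0947, leaving 0 members lower at that level, bright or dim, 2 list genes higher and 0 lower, and 0 of all probe sets at the adjusted p. The methods' one-factor test gave 0.0741 for GAB1, 0 members lower, bright or dim, 1 list gene higher and 0 of all probe sets at the adjusted p. With the mean over the probe sets of a gene 3 list genes were higher and 0 lower.

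Deviations of pools with the same number had a correlation of 0.005 over all probe sets, so that the numbers are not taken to pair the pools. With the replicate number as a block 106 probe sets of all passed the adjusted p, among them IGFBP1 and PCK1 but none of the members.

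With 1 pool left out, the lone pool is assumed to vary like the other diet's, and pools come apart more easily. The log2 fold change then ranged from -0.42 to 0.95 for INSR Ssc.15986.1.S1_at, -0.73 to 0.046 for IGF1R Ssc.16058.1.S1_at, -0.17 to 0.017 for PDPK1 Ssc.30774.1.S1_at, -0.91 to 0.067 for AKT1 Ssc.19672.2.A1_at and -0.58 to 0.33 for AKT2. It ranged from -0.49 to 0.86 and -0.73 to 0.37 for FOXO3 (Ssc.2488.1.A1_at, Ssc.2488.2.S1_at) and from -1.17 to 1.16, -2.85 to 0.19 and -1.90 to 0.80 for the 3 probe sets of TSC1. Among list genes it turned for GRB2 (-0.52 to 0.91), PIK3CG (-0.41 to 0.22), INPPL1 (-0.33 to 0.41), PIK3C3 (-0.21 to 0.20) and MAPK3 (-0.31 to 1.22). At an unadjusted p under 0.05, 0 to 2 members were lower, with 0 to 2 among the bright ones and the dim TSC1 Ssc.30016.2.A1_at without carnitine pool 2, and 0 to 4 list genes were lower, and 0 to 9 list genes were higher. Pools were apart on the higher side for 2 to 3 members (0 to 1 bright) and 17 to 19 list genes, and on the lower side for 8 to 12 members and 15 to 22 list genes. Values that moved by over 1.5 times without turning were those of INSR Ssc.15986.2.S1_at (0.049 to 0.69), IGF1R Ssc.19009.1.S1_at (0.059 to 0.37), CAP1 (0.090 to 0.59), PTPN2 (-1.17 to -0.57) and GRB10 (-0.77 to -0.14). The same held for SGK2 (0.17 to 1.28), RHEB (0.046 to 0.53), YWHAE (0.023 to 0.70), ARAF (-0.21 to -0.095) and MAP2K2 (-0.21 to -0.028). Those of IRS1, PDPK1, AKT1, FOXO1, IGF1 and IGF2 are given above. The median of the bright members ranged from -0.43 to -0.11. Over all probe sets 0 to 8 passed the adjusted p, 358 to 1817 were higher and 626 to 1289 lower at an unadjusted p under 0.05, 7149 to 8758 and 8096 to 9265 were apart on the higher and lower side, and the median ranged from -0.044 to 0.020.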

Other observations

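Several genes of the pathway list had more than 1 probe set, and these did not always point the same way. IGF2 had 13 probe sets, of which 11 had a log2 fold change below 0, 7 had both carnitine pools below both control pools and 0 had them above, beside 20.4% and 19.2% of all probe sets. Of the 13, 5 lay at or above the median signal and 2 had an unadjusted p under 0.05 in limma, which over all probe sets 3.93% had on the lower and 4.72% on the higher side. All 3 probe sets of IGF1 were below 0, from -1.17 to -0.68, and in 2 of them the pools were apart. Both probe sets of PPP2CA were higher at an unadjusted p under 0.05, with log2 fold changes of 0.54 and 0.90. The 5 probe sets of HSP90AA1, all at or above the median signal, ranged from -0.39 to 1.32, with 3 above 0 and 2 below. Probe sets of 1 gene share their RNA, and some share probes or transcripts, so that they are not replicates.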
